A study of Homo sapiens with 42 samples.

Results

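Collagen chain genes are described here across RNA-seq libraries of 786-O cells in which the subunits of the hypoxia-inducible factors (HIFs) were tagged, mutated, overexpressed or recombined. A gene was a member if its symbol was that of a collagen α chain (COL, a type number, A and a chain number) and its mean raw count was at least 10 in batch 1 or in batch 2. Of the 44 collagen chain genes among the 60609 genes listed, 24 met this rule, namely 6 chains of fibrillar collagens, 5 chains of basement membrane collagens and 13 others. Just inside the threshold lay COL3A1 and COL15A1, with mean raw counts of 10.8 in batch 2 and 10.8 in batch 1, and just outside lay COL1A2, at 9.93 in batch 2, and COL28A1, at 7.74 in batch 1. All 24 members passed the filter on low counts in both batches.

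786-O is an established clear cell renal cell carcinoma line without functional VHL, the ubiquitin ligase subunit that marks HIF-α for degradation, so that HIF-2α is stable in normal oxygen, and it makes no functional HIF-1α. Every group was derived from these cells and therefore shares both defects. Batch 1 held 27 libraries of 9 groups: unedited cells (WT), the knock-in (KIN) lines HIF-1β KIN (clone A21) and HIF-2α KIN (clone A31), each 1 clone with a HaloTag fused to the endogenous protein, and WT cells stably expressing HIF-1α, HIF-1α R30E, HIF-1αDM, HIF-2α, HIF-2α R27E or HIF-2αDM. R30E and R27E are substitutions in the DNA-binding domain and DM denotes a double substitution that impairs pairing with HIF-1β. Batch 2 held 15 libraries of 5 groups: WT, HIF-1α, HIF-2α, and 2 chimeras, HIF-1α/2α and HIF-2α/1α, in which the structured N-terminal part of the first isoform was joined to the intrinsically disordered region (IDR) of the second. The transgenes carried V5 and Halo tags, were driven by the weak L30 promoter from a PiggyBac insertion and were kept under puromycin, and the cells that received them still made their own HIF-2α. For HIF-2αDM, the sample title and the genotype entry differed in the isoform they named, and the title was followed. In these libraries, reads were higher than in WT on the gene of HIF-2α and not on that of HIF-1α, as given below. Each group had 3 biological replicates, and p-values measure the spread between these libraries only. The sample titles name no separate lines of a construct, so that construct and line cannot be told apart.

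Collagens are triple-helical proteins assembled from 3 α chains. Fibrillar chains build the cross-linked fibres of connective tissue, type IV chains form the sheet-like network under epithelia and around vessels, and the remaining chains form beaded filaments (type VI), anchoring fibrils (type VII), short-chain networks (type VIII), fibril-associated molecules (types IX, XII, XIV and XVI) or membrane-spanning proteins (types XIII, XVII and XXIII). HIF-α pairs with HIF-1β, encoded by ARNT, and binds hypoxia response elements, and enzymes that hydroxylate and cross-link collagen are among its long-known targets. In the kidney, type IV collagen is a main component of the tubular and glomerular basement membranes.

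Promoter sequences are shown for some of the members called in the HIF-2α and IDR comparisons, since a HIF dimer recognises the core ACGTG or GCGTG. RefSeq promoter windows on GRCh38.p14, from 250 bases before to 50 bases after a transcript start, were matched by symbol for 18 of the 24 members, with 23 windows. The core, on either strand, was present in 13 of the 23 windows (56.5%), against 48.4% of all 35116 windows in the table, so that its presence near a collagen start was close to that of any gene. At least 1 window of 11 members held it. Among members called with the HIF-2α IDR that are not printed, COL12A1 (higher) and COL9A2 (lower) had 2 cores each. COL6A3 (higher) had 0, and COL14A1 (lower) had no window. COL23A1, COL13A1 and the divergent pair COL4A1 and COL4A2 are printed 5′ to 3′ with each core in capitals. The COL23A1 stretch lies at chr5:178590394-178590643 on the minus strand and ends at the base before the start, with cores beginning 203 and 147 bases before it. The COL13A1 stretch lies at chr10:69801656-69801905 on the plus strand, and its core, 144 bases before the start, reads GCGTG on the other strand. The stretch between the RefSeq starts of COL4A1 and COL4A2 lies at chr13:110307158-110307283, is given on the plus strand, and held no core. The full COL4A2 window did hold 1, beginning 220 bases before its start, on the other side of the COL4A1 start and outside the stretch printed.
COL23A1: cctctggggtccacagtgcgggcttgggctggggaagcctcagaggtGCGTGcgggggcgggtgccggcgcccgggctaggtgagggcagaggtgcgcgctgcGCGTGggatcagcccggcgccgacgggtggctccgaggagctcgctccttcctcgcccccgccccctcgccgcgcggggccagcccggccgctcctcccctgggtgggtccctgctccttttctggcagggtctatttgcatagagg
COL13A1: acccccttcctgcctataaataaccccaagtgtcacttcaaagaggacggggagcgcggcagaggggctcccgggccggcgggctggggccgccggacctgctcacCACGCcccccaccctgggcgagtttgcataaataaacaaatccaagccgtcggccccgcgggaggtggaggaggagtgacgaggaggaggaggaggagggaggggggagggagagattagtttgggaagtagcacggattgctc
COL4A1 and COL4A2: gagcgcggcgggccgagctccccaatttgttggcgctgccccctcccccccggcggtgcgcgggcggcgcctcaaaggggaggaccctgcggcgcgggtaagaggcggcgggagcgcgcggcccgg
A match to these 5 letters is a description of the window and not a binding site, and a window without them says nothing of sites elsewhere.

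Counted reads per library ranged from 42377599 to 101186554 in batch 1 and from 76366799 to 109642159 in batch 2. Reads on HIF1A, the gene of HIF-1α, had a mean normalised count of 242 in WT and 3038, 2512 and 2249 in the HIF-1α, HIF-1α R30E and HIF-1αDM cells of batch 1, and reads on EPAS1, the gene of HIF-2α, had 14497 in WT and 44694, 56676 and 48666 in the HIF-2α, HIF-2α R27E and HIF-2αDM cells. In batch 2, HIF1A had 293 in WT and 13161 in HIF-1α cells, so the transgene transcripts were not at equal levels between lines or batches. The gene of the other isoform differed as well. EPAS1 had 22951 in HIF-1α cells of batch 1, above every WT library, 10322 in HIF-1α R30E and 11463.5 in HIF-1αDM. In batch 2 it had 16360 in HIF-1α cells and 12621 in WT. HIF1A had 910, 212 and 193 in the HIF-2α, HIF-2α R27E and HIF-2αDM cells of batch 1, and 936 in HIF-2α cells of batch 2. The part of these levels in any difference between lines was not tested. Of the 9 listed markers of clear cell renal carcinoma and renal epithelium, all but CA9 were present in every library. PAX8 had 18610 to 37011 normalised counts and NDUFA4L2 had 30.1 to 182. CA9 was at 0 in 7 of 27 libraries of batch 1 and in 3 of 15 of batch 2. The 6 fibroblast markers together had 219 to 308 normalised counts in WT of batch 1 and 871 to 1457 in HIF-2α KIN, where PDGFRB accounted for up to 1372, but 106 to 147 in HIF-2α cells. In batch 2 they had 277 to 435 in WT, 138 to 177 in HIF-1α, 187 to 224 in HIF-2α/1α, 87.7 to 112 in HIF-2α and 64.2 to 107 in HIF-1α/2α cells, with LUM at a mean of up to 222 in a group, and their part in the results was not tested. DCN was at 0 in all 27 libraries of batch 1 and in 9 of 15 of batch 2, where its highest value was 5.42. CD3E, a T-cell marker, was at 0 in all 42 libraries. In these bulk libraries a smaller share of expressing cells and less RNA per cell cannot be told apart.

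The collagen transcripts of WT 786-O cells were dominated by basement membrane chains. Levels of different genes are compared here as normalised counts per kb of the canonical transcript, where a normalised count is a read count scaled to the mean library of its batch. In batch 1 the 3 highest members in WT were COL4A2, with 20926 ± 5154 per kb (SD, n = 3), COL4A1, with 13352 ± 2698, and COL18A1, the precursor of endostatin, with 10028 ± 1789, and the ranges of neighbours in this order overlapped. COL7A1, the chain of anchoring fibrils, and COL6A2 followed, with 7202 ± 1342 and 6381 ± 1407 per kb, also overlapping, and then COL6A1, with 3003 ± 789, and COL8A1, with 2535 ± 295. The same 3 chains led in batch 2, where COL4A2 (10772 ± 96.0 per kb), COL4A1 (8425 ± 193) and COL18A1 (4289 ± 197) did not overlap with each other, although COL18A1 overlapped with COL6A2 (4042 ± 119), the next in order. Apart from COL27A1, the highest level of a fibrillar chain in a WT library was 174 per kb, for COL1A1, and at the low end COL3A1 and COL23A1 had at most 0.183 and 0.334 per kb in any WT library.

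COL4A1 and COL4A2 together made up 52.2% ± 1.7 (SD, n = 3) of the summed collagen level per kb in WT of batch 1 and 51.3% ± 0.68 in WT of batch 2. This share was 32.4% ± 2.2 in HIF-1α cells and 18.2% ± 1.4 in HIF-2α cells of batch 1, and between 41.7% and 47.1% in the 2 KIN lines and the 4 mutant lines. The type VI chains COL6A1, COL6A2 and COL6A3 took up 15.5% ± 0.29 in WT, 36.9% ± 0.88 in HIF-1α and 41.7% ± 2.1 in HIF-2α cells. In batch 2 the type IV pair took 19.7% ± 0.46 in HIF-2α cells, against 44.1% ± 2.4 for type VI, and 13.2% ± 0.55 in HIF-1α/2α cells, against 53.1% ± 2.1. With the HIF-1α IDR it took 32.5% in each of HIF-1α and HIF-2α/1α cells. The ranges of the functional lines and of WT did not overlap for either share, and the same held for the KIN and mutant lines of batch 1. In these, the type VI share was 18.6% in each KIN line and between 23.0% (HIF-2α R27E) and 27.5% (HIF-1α R30E) in the mutant lines. Shares sum to a whole, so a larger share of 1 type lowers the others whether or not their own levels change. All members together took 0.616% to 0.768% of counted reads, as group means, in batch 1 and 0.267% to 0.438% in batch 2.

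**Figure D1:**
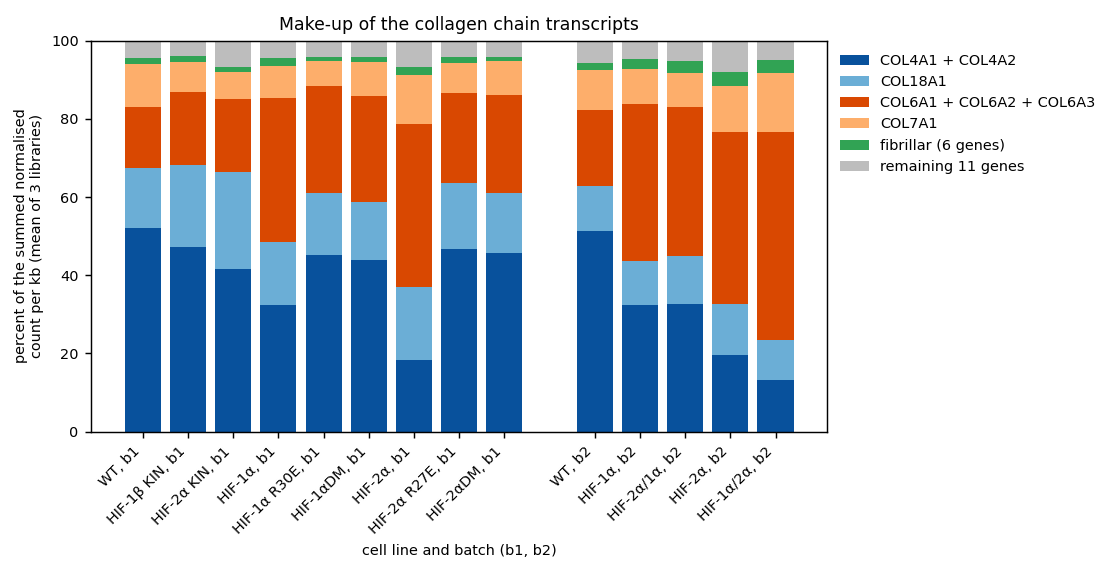
Share of the summed normalised count per kb of the 24 collagen chain genes, in percent, for each group (mean of 3 libraries) of batch 1 and batch 2. The share of COL4A1 and COL4A2 was 52.2% in WT and 18.2% in HIF-2α cells of batch 1, while that of the type VI chains was 15.5% and 41.7%.

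The comparisons with WT asked which members were higher or lower when a subunit was tagged or an α isoform was expressed. A member was called when edgeR's quasi-likelihood test gave a Benjamini-Hochberg adjusted p of at most 0.01 over all genes tested and the difference was at least 2-fold. Comparisons within a batch shared their 3 WT libraries. In batch 1, expressing HIF-1α gave 8 members called higher and none lower, where 3.79% of all genes were called, and expressing HIF-2α gave 7 higher and 4 lower, where 5.72% of all genes were called. In batch 2 the counts were 7 higher and 0 lower for HIF-1α (4.39% of all genes called), 9 higher and 0 lower for HIF-2α/1α (3.49%), 8 higher and 4 lower for HIF-2α (7.58%), and 12 higher and 4 lower for HIF-1α/2α (7.78%). The mutant lines had fewer: 4 higher in HIF-1α R30E (2.61% of all genes called), 3 higher in HIF-1αDM (0.457%), 1 higher in HIF-2α R27E (0.496%) and 0 in HIF-2αDM (0.474%). For HIF-2αDM, 6 members had an unadjusted p under 0.05 in edgeR and DESeq2 called 3. The KIN lines had 2 higher and 4 lower for HIF-1β KIN (1.38% of all genes called) and 1 higher and 3 lower for HIF-2α KIN (4.14%). Among tested genes with a mean raw count of at least 10, as the members had, the share called lay between 0.586% (HIF-1αDM) and 11.3% (HIF-1α/2α). By direction, 3.27% of all genes were called higher and 0.517% lower for HIF-1α in batch 1, and 3.9% and 0.484% in batch 2. The shares were 2.98% and 0.508% for HIF-2α/1α, 0.453% and 0.00427% for HIF-1αDM, and 3.78% and 1.94% for HIF-2α in batch 1. Lower calls were thus the fewer ones among all genes of these lines as well.

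In total, 20 members were called against WT in at least 1 of the 12 comparisons, as were 13.7% of all 29219 genes tested in either batch and 20.0% of the 18320 with a mean raw count of at least 10 in a batch. COL3A1 and COL23A1 met the count rule for members only through lines in which they were high, so their calls there are a description and not a finding, and without them 18 of 22 members were called. Of the 20, 5 (COL5A1, COL6A3, COL12A1, COL13A1 and COL14A1) were higher in some and lower in other comparisons. The 4 members that were not called in any were COL8A1, COL8A2, COL16A1 and COL18A1, of which COL8A2 in HIF-1α cells and COL16A1 in both KIN lines were called with the replicate block, as given below. By class, the median log2 change of the fibrillar chains was 1.70 in HIF-1α and 1.30 in HIF-2α cells of batch 1 and 1.73 and 1.18 in batch 2, beside medians of all genes tested between -0.09 and 0.07. The basement membrane chains had medians of 0.02 and -1.21 in batch 1 and -0.13 and -0.27 in batch 2 for the same 2 lines, and the other chains 1.18 and 1.05, then 1.05 and 0.92. These medians include fitted values of chains with few reads. The 5 chains called lower in any comparison of an expressed isoform with WT were COL4A1, COL4A2, COL9A2, COL14A1 and, in HIF-1α/2α cells alone, COL15A1. Lower in a KIN line were COL5A1, COL6A3, COL9A2, COL12A1 and COL13A1.

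**Figure D2:**
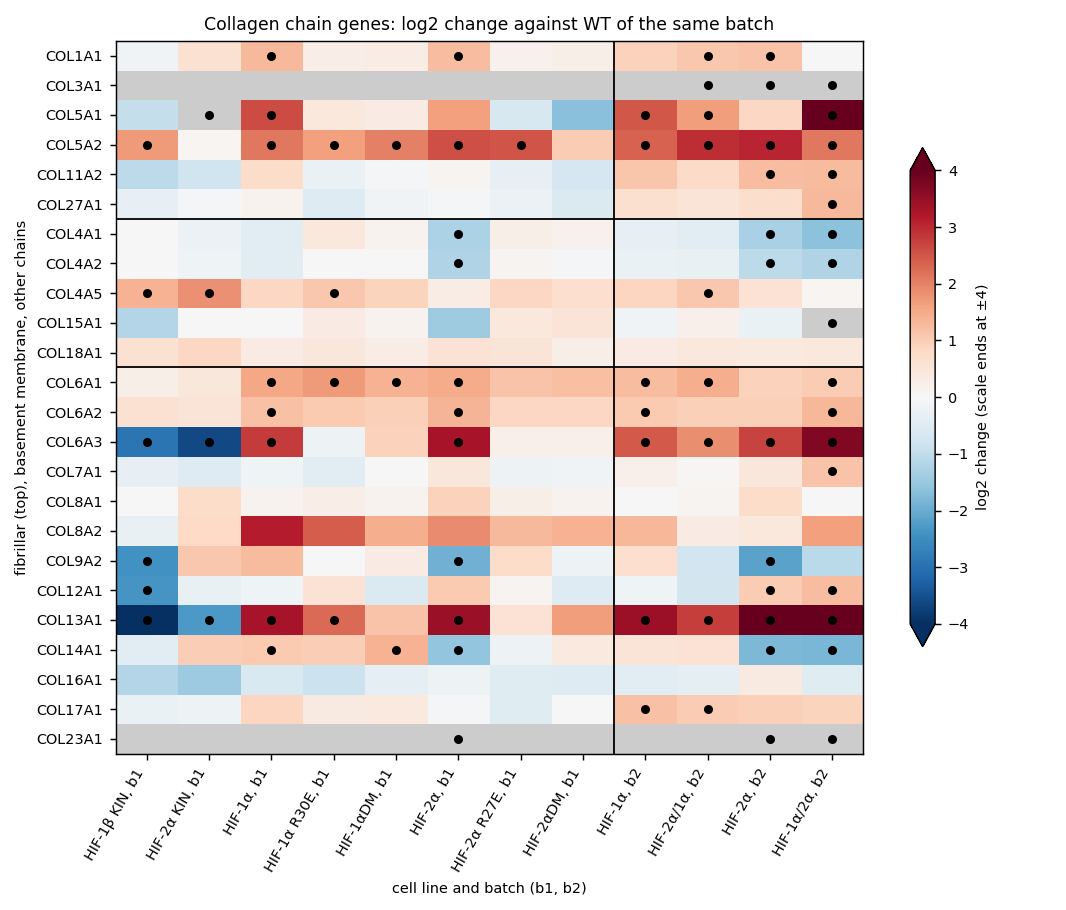
Log2 change of each of the 24 collagen chain genes against WT of the same batch (columns: the 8 lines of batch 1, then the 4 lines of batch 2), by chain class, with a dot where the change was called and grey where a group had 3 reads or fewer in all. COL6A3 was called in 8 of the 12 columns and changed sign between the KIN lines and the functional lines, and COL4A1 and COL4A2 were called lower in HIF-2α cells of both batches and in HIF-1α/2α cells.

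COL4A1 and COL4A2, the chains of the ubiquitous type IV network, lie head to head on chromosome 13 (GENCODE v44, hg38, COL4A1 at chr13:110148963-110307157 on the minus strand and COL4A2 at chr13:110305812-110513209 on the plus strand), and their levels moved together. In batch 1, COL4A1 had normalised counts of 72106, 83198 and 106667 in WT, 49862, 64413 and 81232 in HIF-1α cells, and 27980, 31159 and 49170 in HIF-2α cells. The HIF-2α libraries lay below every WT library, while those of HIF-1α overlapped with WT. COL4A1 fell by 1.27 ± 0.27 on the log2 scale (SE, n = 3 and 3, adjusted p = 0.00127) in HIF-2α cells and COL4A2 fell by 1.21 ± 0.30 (adjusted p = 0.00663). With HIF-1α the differences were -0.42 for each, with adjusted p = 0.41 and 0.49. The call of COL4A1 was lost without WT replicate 3, HIF-2α replicate 1 or HIF-2α replicate 2, and that of COL4A2 also without WT replicate 2, although the log2 changes stayed between -1.56 and -1.10 for COL4A1 and between -1.51 and -1.01 for COL4A2.

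Batch 2 gave the same order with a smaller spread. COL4A1 had 53714, 55411 and 56178 normalised counts in WT, 43241, 43870 and 45858 in HIF-1α cells, 40787, 36990 and 43108 in HIF-2α/1α cells, 21404, 22466 and 23288 in HIF-2α cells, and 17779, 18771 and 16203 in HIF-1α/2α cells. All 6 libraries of lines with the HIF-2α IDR lay below all 6 libraries of lines with the HIF-1α IDR, and these lay below WT. Against WT, COL4A1 fell by 1.30 ± 0.05 (adjusted p = 4.79e-24) in HIF-2α and by 1.65 ± 0.05 (adjusted p = 8.09e-28) in HIF-1α/2α cells. COL4A2 fell by 1.03 ± 0.05 and by 1.20 ± 0.05, and no call of either gene was lost when any 1 library was left out. In HIF-1α and HIF-2α/1α cells the COL4A1 differences of -0.31 and -0.45 had adjusted p = 8.56e-06 and 4.76e-09 but were under 2-fold. The ratio of COL4A1 to COL4A2 per kb was 0.782 ± 0.012 in WT (SD, n = 3), 0.750 in HIF-1α, 0.697 in HIF-2α/1α, 0.650 in HIF-2α and 0.575 ± 0.028 in HIF-1α/2α cells of batch 2. In batch 1 it was 0.644 ± 0.043 in WT and 0.611 ± 0.013 in HIF-2α cells, with overlapping ranges. The median log2 change of the genes on chromosome 13 with a mean normalised count of at least 50 (217 in batch 1 and 249 in batch 2) was -0.228 in HIF-2α cells of batch 1, -0.163 in those of batch 2 and -0.307 in HIF-1α/2α cells, and its part in these results was not tested. Exons of COL4A2 also overlap 2 antisense genes, and the counting did not use strand.

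**Figure D3:**
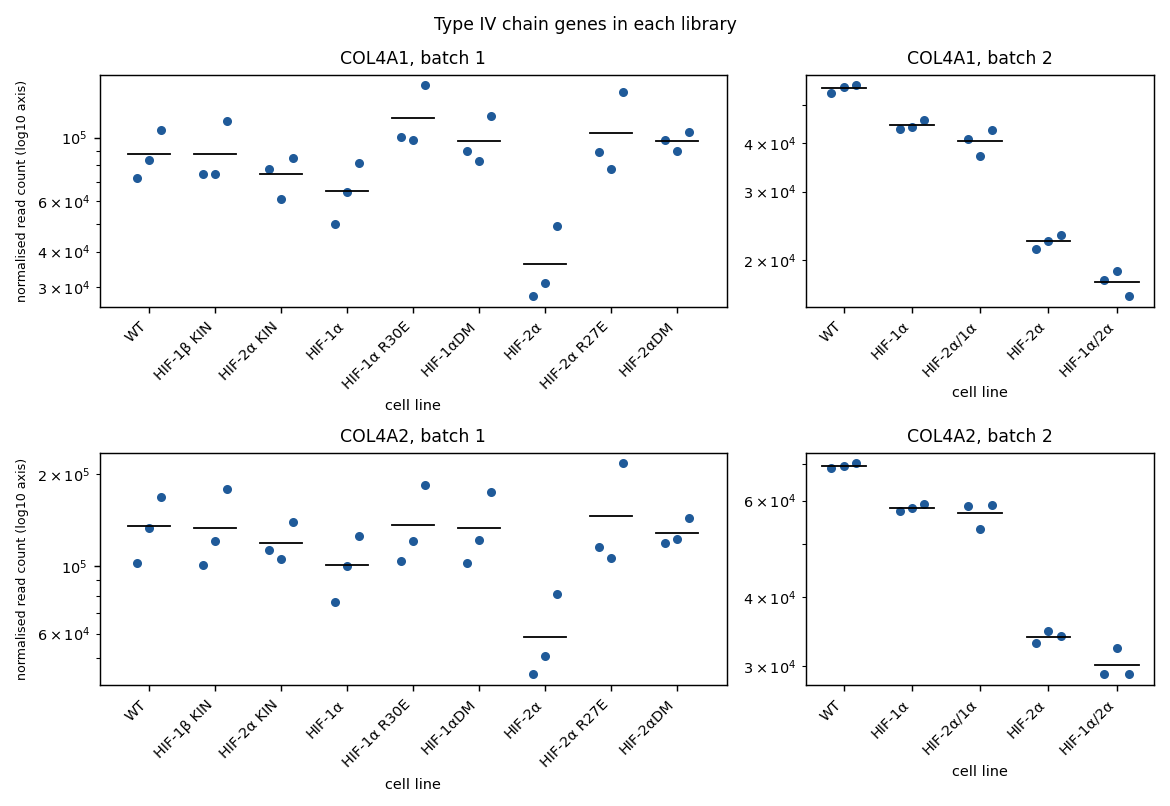
Normalised counts of the type IV chains COL4A1 and COL4A2 in every library (points; bars are means of 3 libraries; log axis) by group in batch 1 and batch 2. COL4A1 in HIF-2α cells lay at 27980 to 49170 in batch 1 and 21404 to 23288 in batch 2, below every WT library.

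Of the other basement membrane chains, COL4A5 and COL18A1 were called lower in no comparison with WT. COL4A5, a chain of the mature glomerular network, had normalised counts of 589, 567 and 450 in WT, 1388, 1427 and 1409 in the HIF-1β KIN line, and 2251, 1782 and 1645 in the HIF-2α KIN line. Both edited lines lay above every WT library, with log2 changes of 1.40 ± 0.22 (adjusted p = 0.000206) and 1.82 ± 0.22 (adjusted p = 1.95e-06). COL4A5 was also called higher in HIF-1α R30E (1.07 ± 0.22, adjusted p = 0.00229), a call lost without WT replicates 2 or 3 or HIF-1α R30E replicates 2 or 3 (log2 changes of 0.94 to 1.24), and in HIF-2α/1α cells of batch 2 (1.08 ± 0.13), lost without WT replicate 2 (lowest log2 change 0.98). COL18A1 was called in no comparison with WT, and its log2 changes lay between 0.23 and 0.84 in all 12. COL15A1 was near the limit of counting, with 32 reads in the 3 WT libraries and 3 reads in the 3 HIF-1α/2α libraries of batch 2, a ratio of 9.68 (exact 95% interval 3.03 to 49.4, counting error only), and its call, in the same direction as those of COL4A1 and COL4A2, was lost whichever of the 6 libraries was left out. In batch 1 COL15A1 had 9.68 to 11.6 normalised counts in WT and 1.48 to 6.38 in HIF-2α cells, a log2 change of -1.41 ± 0.77 that was not called (adjusted p = 0.255).

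Of the type VI chains, which assemble as α1, α2 and α3 into beaded filaments, COL6A3 (chr2:237324003-237414328, minus strand) showed the widest range. In batch 1 COL6A3 had normalised counts of 8276, 8743 and 8783 in WT, 60342, 63396 and 54437 in HIF-1α cells, and 87920, 77369 and 89225 in HIF-2α cells. The KIN lines were on the other side, where the HIF-1β KIN line had 841, 1130 and 1403 and the HIF-2α KIN line 661, 769 and 692. None of these 4 groups overlapped with WT. COL6A3 rose by 2.79 ± 0.19 on the log2 scale (adjusted p = 1.47e-10) with HIF-1α and by 3.30 ± 0.20 (adjusted p = 6.22e-12) with HIF-2α, and it fell by 2.93 ± 0.20 (adjusted p = 6.71e-11) in HIF-1β KIN, and it fell by 3.60 ± 0.20 (adjusted p = 1.38e-12) in HIF-2α KIN. Each of these 4 calls was kept whichever library was left out.

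The mutants separated COL6A3 from COL6A1. COL6A3 had 5673, 8440 and 8092 normalised counts in HIF-1α R30E, 13294, 19073 and 16840 in HIF-1αDM, 9118, 10484 and 9941 in HIF-2α R27E, and 8572, 11742 and 9188 in HIF-2αDM. None was called against WT, with log2 changes of -0.22, 0.93, 0.20 and 0.19, although HIF-1αDM lay above every WT library and passed the p threshold (adjusted p = 0.0065) at under 2-fold. Direct comparison gave COL6A3 as higher in HIF-1α than in R30E by 3.00 ± 0.20 (adjusted p = 5.75e-11) and than in HIF-1αDM by 1.86 ± 0.19 (adjusted p = 2.23e-07). It was higher in HIF-2α than in R27E by 3.11 ± 0.20 (adjusted p = 2.41e-11) and than in HIF-2αDM by 3.11 ± 0.20 (adjusted p = 1.47e-11). COL6A1, in contrast, was called higher than WT in HIF-1α (1.56 ± 0.26, adjusted p = 0.000179), HIF-1α R30E (1.71 ± 0.26, adjusted p = 7.51e-05), HIF-1αDM (1.38 ± 0.26, adjusted p = 0.00457) and HIF-2α cells (1.48 ± 0.26, adjusted p = 0.000199). The HIF-1αDM call was lost without WT replicates 1 or 2 or HIF-1αDM replicates 2 or 3, with log2 changes of 1.19 to 1.58. No difference in COL6A1 between HIF-1α and its mutants or between HIF-2α and its mutants was called, with log2 differences of -0.16 to 0.34.

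COL6A1 normalised counts in batch 1 were 9204, 12840 and 15822 in WT, 29607, 35010 and 46751 in HIF-1α, and 40760, 32507 and 50989 in HIF-1α R30E, so that the libraries of the DNA-binding mutant line overlapped with those of the functional line, reached above them in replicate 3, and all lay above WT. In HIF-2α R27E, with normalised counts of 18473, 24626 and 40405, the log2 change of COL6A1 was 1.14 ± 0.26 and was not called (adjusted p = 0.0244), but it was called when the replicate number, which paired these samples, entered the fit as a block (1.11, adjusted p = 5.1e-06). COL6A2 (chr21:46098112-46132848), the neighbour of COL6A1 (chr21:45981770-46005050) on the plus strand, was called higher in HIF-1α cells of batch 1 (1.18 ± 0.28, adjusted p = 0.00575) and HIF-2α cells (1.35 ± 0.28, adjusted p = 0.00107). The former call was lost without WT replicates 1 or 2 or HIF-1α replicates 2 or 3 and the latter without WT replicate 1 or HIF-2α replicate 3, with log2 changes of 0.99 to 1.34 and 1.12 to 1.52.

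In batch 2, COL6A3 had normalised counts of 12443, 12946 and 11478 in WT, 68690, 67963 and 63192 in HIF-1α, 48797, 48728 and 36958 in HIF-2α/1α, 82762, 90759 and 69083 in HIF-2α, and 174294, 174042 and 136457 in HIF-1α/2α cells. The groups with an expressed isoform did not overlap with WT, and HIF-1α/2α lay above all others. Against WT the log2 changes were 2.44 ± 0.08 (adjusted p = 8.06e-27), 1.87 ± 0.08 (adjusted p = 1.09e-22), 2.72 ± 0.08 (adjusted p = 6.52e-29) and 3.72 ± 0.09 (adjusted p = 1.63e-33). COL6A1 and COL6A2 stayed within a narrower band, with log2 changes of 0.92 to 1.46 and 0.94 to 1.33. The COL6A1 call in HIF-1α/2α cells (1.01) was lost without WT replicate 3 or HIF-1α/2α replicates 2 or 3 (0.97 to 1.06). The chains are required together in a type VI molecule, and their transcripts did not keep a fixed proportion: the ratio of COL6A3 to COL6A1 per kb was 0.284 ± 0.069 in WT, 0.0306 ± 0.0029 in HIF-1β KIN, 0.0164 ± 0.0025 in HIF-2α KIN and 0.985 ± 0.19 in HIF-2α cells of batch 1 (SD, n = 3). In batch 2 it went from 0.570 ± 0.023 in WT to 3.74 ± 0.65 in HIF-1α/2α cells.

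**Figure D4:**
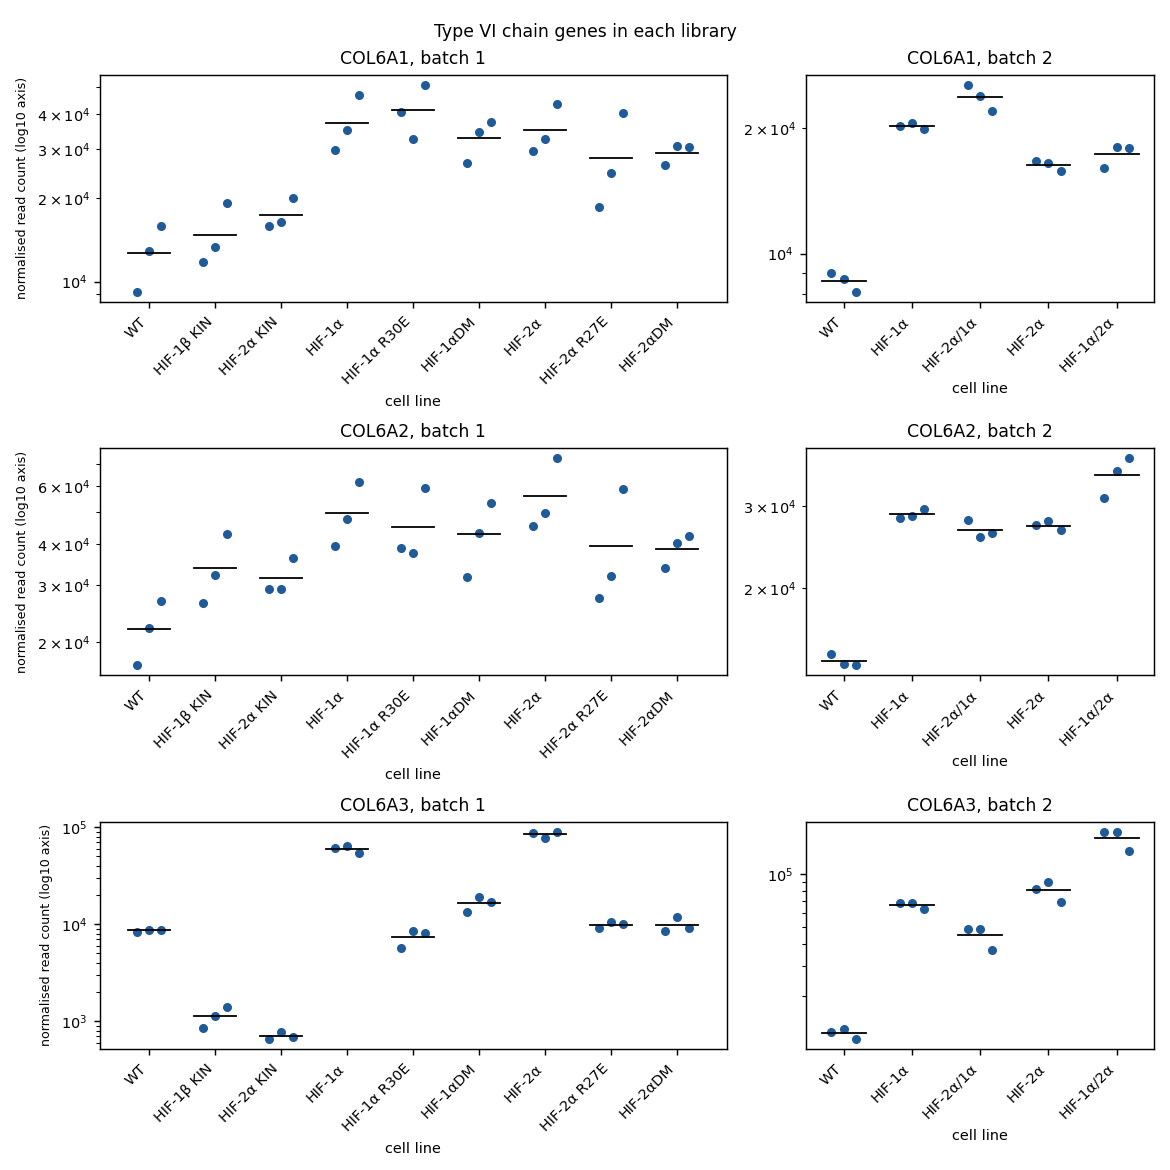
Normalised counts of COL6A1, COL6A2 and COL6A3 in every library (points; bars are means of 3 libraries; log axis) by group in batch 1 and batch 2. COL6A3 ranged from 661 to 769 in HIF-2α KIN to 77369 to 89225 in HIF-2α cells of batch 1, while COL6A1 and COL6A2 varied far less.

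Among the fibrillar chains, COL5A2 (chr2:189031898-189225312, minus strand), the α2 chain of type V collagen that nucleates fibrils, was called in 10 of the 12 comparisons, each time higher. COL5A2 had normalised counts of 458, 607 and 635 in WT of batch 1, 1513, 1796 and 2284 in the HIF-1β KIN line, 529, 607 and 652 in the HIF-2α KIN line, and 2417, 3181 and 4167 in HIF-2α R27E. HIF-2α KIN overlapped with WT and the other lines named here lay above it. The log2 change was 2.10 ± 0.24 (adjusted p = 8.26e-07) with HIF-1α, 2.59 ± 0.25 (adjusted p = 1.85e-08) with HIF-2α, 2.52 ± 0.25 (adjusted p = 6.51e-07) with HIF-2α R27E, 1.65 ± 0.24 (adjusted p = 3.49e-05) with HIF-1α R30E and 2.02 ± 0.24 (adjusted p = 1.2e-05) with HIF-1αDM. It was 1.72 ± 0.24 (adjusted p = 3.36e-05) in HIF-1β KIN. Like COL6A1, COL5A2 was thus raised in lines whose transgene product carried a DNA-binding substitution, and neither functional isoform differed from its DNA-binding mutant by a called amount. COL5A2 was higher in HIF-2α than in HIF-2αDM by a log2 difference of 1.58 (adjusted p = 3.45e-05). In batch 2 its 3 WT libraries had 297, 303 and 344 normalised counts and the lowest library of an expressed isoform had 1271.

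COL5A1 (chr9:134641803-134844843, plus strand), the α1 chain of type V, behaved otherwise. COL5A1 had 19.8, 33.9 and 35.1 normalised counts in WT of batch 1, 154, 122 and 272 in HIF-1α cells, and 74.2, 96.0 and 106 in HIF-2α cells. Both functional lines lay above WT, and the difference was called for HIF-1α (2.62 ± 0.45, adjusted p = 0.000208) and missed the threshold for HIF-2α (1.64 ± 0.44, adjusted p = 0.0117). It was higher in HIF-1α than in R30E (2.20, adjusted p = 0.00251) and HIF-1αDM (2.28, adjusted p = 0.00213), and these calls were lost without HIF-1α replicate 3 or replicates 1 or 2 of the mutant, with log2 differences of 1.79 to 2.50. COL5A1 was higher in HIF-2α than in R27E (2.29, adjusted p = 0.0012) and HIF-2αDM (3.32, adjusted p = 2.31e-05). In HIF-2α KIN only 3 reads fell on COL5A1, in 1 of the 3 libraries, against 109 in WT, a ratio of 26.2 (95% interval 8.74 to 129, counting error only).

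COL1A1, the α1 chain of type I collagen, had log2 changes of 1.29 ± 0.31 (adjusted p = 0.00684) with HIF-1α and 1.23 ± 0.31 (adjusted p = 0.00683) with HIF-2α in batch 1. Both calls were lost without WT replicates 1 or 2 or replicates 2 or 3 of the expressing line, with log2 changes of 1.10 to 1.55 and 0.95 to 1.49. In batch 2, COL1A1 was called with the HIF-2α transgene (1.13) and HIF-2α/1α (1.08, lost without HIF-2α/1α replicate 1, lowest log2 change 0.98). Against HIF-2α R27E, COL1A1 was higher in HIF-2α cells by 1.05 (adjusted p = 0.0308), which was called with the replicate block (1.09, adjusted p = 9.21e-05), the numbers pairing these samples. Its partner COL1A2 was not a member. COL3A1 was a member through batch 2 alone, and most of its reads there came from 3 lines. It had 2 reads in the 3 WT libraries of batch 2, 14 in HIF-1α cells and 60 in HIF-2α/1α cells (ratio 33.8), 50 in HIF-2α cells (ratio 30.0) and 36 in HIF-1α/2α cells (ratio 19.8). By library the reads were 0, 14 and 22 in HIF-1α/2α cells and 1, 3 and 10 in HIF-1α cells, against 1, 0 and 1 in WT. The HIF-1α/2α libraries thus overlapped with WT, and the call in these cells was lost without WT replicate 2 or HIF-1α/2α replicate 3. COL27A1 was called in HIF-1α/2α cells alone, with 4582, 4201 and 4016 normalised counts in WT and 10010, 10519 and 11175 in those cells (1.31 ± 0.07, adjusted p = 5.01e-21). COL11A2 was called in HIF-2α and HIF-1α/2α cells of batch 2 (1.23 and 1.25), with at most 7.77 normalised counts per kb in any of these libraries, and each call held in 1 of the 6 fits that left out a library (log2 changes of 0.89 to 1.74 and 0.91 to 1.76). It was kept only without WT replicate 3.

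COL23A1 (chr5:178237476-178590393, minus strand), a membrane-spanning collagen, was counted in number only in the lines expressing HIF-2α or HIF-1α/2α, and it was a member through these lines. COL23A1 had 0.826, 0.968 and 0 normalised counts in WT of batch 1, 8.50, 6.94 and 0.911 in HIF-1α cells, and 390, 352 and 510 in HIF-2α cells. The 3 HIF-2α libraries lay above all 24 others of the batch, of which the highest had 8.50. The 965 reads in HIF-2α cells against 2 in WT gave a ratio of 786 (95% interval 217 to 6500, counting error only), and HIF-2α R27E and HIF-2αDM had 1 and 3 reads. In the 3 WT libraries of batch 2 there were 0 reads. HIF-2α cells had 105, 68.1 and 86.9 normalised counts, HIF-1α/2α cells 17.4, 17.8 and 24.9, HIF-1α cells 8.68, 0 and 0.948, and HIF-2α/1α cells 0, 1.72 and 1.11. Against a floor of 3 reads over the WT group, COL23A1 was at least 95.6-fold higher in HIF-2α and at least 21.7-fold higher in HIF-1α/2α cells. The promoter stretch printed above, with its 2 cores, belongs to this gene, and any part of the cores in these levels was not tested.

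COL13A1 (chr10:69801880-69964275, plus strand), a membrane-spanning chain of cell adhesion sites, had normalised counts of 47.1, 25.2 and 75.9 in WT of batch 1, 406, 421 and 645 in HIF-1α, and 428, 474 and 718 in HIF-2α cells. It was low in the KIN lines, with 1.08, 0 and 3.42 in the clone of HIF-1β and 3.92, 2.86 and 20.3 in that of HIF-2α. Neither the functional nor the KIN lines overlapped with WT. The log2 changes were 3.30 ± 0.46 (adjusted p = 1.56e-05) and 3.44 ± 0.47 (adjusted p = 5.67e-06) for the functional isoforms and -4.84 ± 0.68 (adjusted p = 3.7e-05) and -2.30 ± 0.53 (adjusted p = 0.004) for the KIN lines. The HIF-2α KIN call was lost without WT replicate 3 or HIF-2α KIN replicates 1 or 2, with log2 changes of -3.82 to -1.84. COL13A1 was also called higher in HIF-1α R30E (2.27 ± 0.45, adjusted p = 0.00149), lost without WT replicates 1 or 2 or HIF-1α R30E replicate 3 (1.97 to 2.73). In batch 2 it had 27.0, 42.0 and 16.0 in WT and 2056, 2189 and 1950 in HIF-1α/2α cells, a log2 change of 6.14 ± 0.20 (adjusted p = 3.46e-28), beside 3.43 with HIF-1α, 2.78 with HIF-2α/1α and 4.16 with HIF-2α.

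The fibril-associated chains COL14A1 and COL9A2 separated the isoforms. COL14A1 had 356, 420 and 422 normalised counts in WT of batch 1, 797, 1009 and 649 in HIF-1α cells, and 177, 91.6 and 135 in HIF-2α cells. The isoforms lay on opposite sides of WT, with log2 changes of 1.03 ± 0.25 (adjusted p = 0.00743) and -1.57 ± 0.26 (adjusted p = 9.04e-05). The HIF-1α call was kept only without HIF-1α replicate 3 (log2 changes of 0.86 to 1.18), and it was lost without any of the 3 WT libraries or HIF-1α replicates 1 or 2. Tested directly, COL14A1 was lower in HIF-2α than in HIF-1α cells by a log2 difference of -2.61 ± 0.27 (adjusted p = 2.01e-07). COL9A2 had 146, 89.0 and 170 in WT, 37.9, 35.5 and 34.0 in HIF-2α cells and 19.4, 24.5 and 31.6 in HIF-1β KIN, and both lines lay below WT. COL9A2 fell by 1.92 ± 0.44 (adjusted p = 0.00305) and 2.41 ± 0.44 (adjusted p = 0.00114) on the log2 scale. The first call was kept only without WT replicate 2 (-2.14 to -1.72), being lost without WT replicates 1 or 3 or any HIF-2α library, and the second was lost without HIF-1β KIN replicates 1 or 2 (-2.64 to -2.21). With HIF-1α, COL9A2 had a log2 change of 1.28 (adjusted p = 0.0488), called with the replicate block that these samples allowed (1.40, adjusted p = 0.0022), and COL8A2, a network-forming chain, had 3.15 (adjusted p = 0.0103), called with the block (3.17, adjusted p = 0.00216). COL8A2 was a member through batch 1 alone, with a mean raw count of 11.7 there, near the threshold. The HIF-1α libraries count towards that mean, so this call of COL8A2 is a description and not a finding. COL14A1 was also called higher in HIF-1αDM (1.38 ± 0.25, adjusted p = 0.00302), a call kept only without HIF-1αDM replicate 1 and lost without each WT library or HIF-1αDM replicates 2 or 3 (1.12 to 1.55).

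COL12A1 had normalised counts of 243, 187 and 176 in WT of batch 1, 51.7, 36.2 and 30.8 in HIF-1β KIN, and 385, 325 and 545 in HIF-2α cells. The KIN libraries lay below WT and the HIF-2α libraries above it. COL12A1 fell by 2.35 ± 0.37 (adjusted p = 0.000157) in HIF-1β KIN and was not called in HIF-2α KIN (-0.30, adjusted p = 0.677) or in HIF-2α cells of batch 1 (1.05, adjusted p = 0.0379). In batch 2 it was called higher in HIF-2α cells (1.03 ± 0.13, adjusted p = 1.4e-08), lost without WT replicate 1 or HIF-2α replicates 2 or 3 (0.87 to 1.19), and in HIF-1α/2α cells (1.24 ± 0.13, adjusted p = 1.2e-10). COL17A1, a chain of epithelial attachment to the basement membrane, was called higher in batch 2 with HIF-1α (1.16, adjusted p = 0.00153) and HIF-2α/1α (1.02, adjusted p = 0.00635). The first call was lost without WT replicate 3 or HIF-1α replicate 1 (0.90 to 1.53), and the second without WT replicates 1 or 3 or HIF-2α/1α replicates 1 or 2 (0.76 to 1.39). COL17A1 libraries ranged from 30.1 to 74.4 normalised counts in WT and from 95.4 to 138 in these 2 lines.

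Comparing the isoforms directly, HIF-2α against HIF-1α gave 1 member higher (COL23A1) and 2 lower (COL9A2 and COL14A1) in batch 1, where 2.4% of all genes were called, and 2 higher (COL12A1 and COL23A1) and 3 lower (COL5A1, COL9A2 and COL14A1) in batch 2, where 3.78% were called. COL23A1 was a member only through lines in which it was high. Its calls here and against the HIF-2α mutants are therefore a description and not a finding. COL9A2 was lower by -3.20 ± 0.45 (adjusted p = 2.45e-05) in batch 1 and by -2.81 (adjusted p = 5.01e-08) in batch 2, and no call of this comparison in batch 1 was lost when a library was left out. COL12A1 differed by 1.22 (adjusted p = 0.0337) in batch 1, called with the replicate block (1.21, adjusted p = 0.00751). COL4A1 differed by -0.85 (adjusted p = 0.059) in batch 1 and -0.99 (adjusted p = 1.88e-19) in batch 2, under 2-fold in each. Against the mutants of the same isoform, HIF-1α had 2 members higher than R30E (COL5A1 and COL6A3, 1.75% of all genes called) and 3 higher than HIF-1αDM (COL5A1, COL6A3 and COL13A1, 1.37%), with 0 lower. The COL13A1 call against HIF-1αDM (2.16, adjusted p = 0.00357) was lost without HIF-1α replicate 3 or any HIF-1αDM library, with log2 differences of 1.92 to 2.39. HIF-2α had 4 higher and 4 lower than R27E (3.63%) and 6 higher and 2 lower than HIF-2αDM (3.96%). COL12A1 (1.58, adjusted p = 0.00273) and COL13A1 (1.77, adjusted p = 0.00753) were among those higher than in HIF-2αDM. The former call was lost without HIF-2α replicate 3 or HIF-2αDM replicates 2 or 3 (1.35 to 1.80), and the latter without each of the 6 libraries (1.51 to 1.96). COL4A2 was lower than in R27E by -1.32 (adjusted p = 0.00435), lost without HIF-2α replicates 1 or 2 or R27E replicate 3 (-1.64 to -0.92). COL4A1 was lower in HIF-2α than in R27E by -1.52 ± 0.27 (adjusted p = 0.000275) and than in HIF-2αDM by -1.43 (adjusted p = 0.00048). COL14A1 was lower than in R27E by -1.38 (adjusted p = 0.00063) and than in HIF-2αDM by -1.96 (adjusted p = 6.88e-06).

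The chimeras asked whether a member followed the structured part or the IDR. Averaged over both structured parts, lines with the HIF-2α IDR differed from lines with the HIF-1α IDR in 7 members, 4 higher and 3 lower, where 4.41% of all genes were called. COL13A1 was higher by 2.04 ± 0.11 (adjusted p = 3.27e-20), COL12A1, a fibril-associated chain, by 1.58 ± 0.10 (adjusted p = 4.44e-18), and COL6A3 by 1.06 ± 0.06 (adjusted p = 2.14e-20). COL14A1 was lower by -2.35 ± 0.10 (adjusted p = 5.91e-24), COL9A2 by -1.56 ± 0.26 (adjusted p = 2.84e-06) and COL4A1 by -1.09 ± 0.04 (adjusted p = 6.7e-27), and the fourth that was higher was COL23A1, itself a member through the lines with the HIF-2α IDR. COL12A1 had 376, 477 and 474 normalised counts in WT, 326, 382 and 483 in HIF-1α, 242, 276 and 281 in HIF-2α/1α, 686, 935 and 1096 in HIF-2α, and 1021, 930 and 1187 in HIF-1α/2α cells, so that both lines with the HIF-2α IDR lay above all other libraries. COL14A1 had 540, 581 and 768 normalised counts in WT, 929, 925 and 823 in HIF-1α, 1027, 918 and 858 in HIF-2α/1α, 179, 158 and 205 in HIF-2α, and 153, 149 and 230 in HIF-1α/2α cells, so that the libraries fell into 2 ranges by IDR with WT between them. The COL6A3 call was lost without HIF-2α/1α replicate 3, where the log2 difference was 1.00, and the other 6 calls were kept in all 12 fits that left out a library.

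Averaged over both IDRs, lines with the HIF-2α structured part had 3 members lower and 0 higher than lines with the HIF-1α structured part, where 1.04% of all genes were called: COL5A1 (-2.60 ± 0.12, adjusted p = 1.29e-21), COL13A1 (-1.32 ± 0.11, adjusted p = 4.43e-13) and COL9A2 (-1.24 ± 0.26, adjusted p = 0.000329). COL9A2 and COL13A1 were thus called for both parts of the protein. For COL14A1 the structured part made a log2 difference of 0.05 ± 0.10 (adjusted p = 0.824), and for COL4A1 0.11 ± 0.04 (adjusted p = 0.0482).

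The IDR difference depended on the structured part in 2 members, where 1.18% of all genes were called. COL5A1 had 25.0, 37.2 and 34.1 normalised counts in WT, 161, 206 and 175 in HIF-1α, 95.8, 94.0 and 120 in HIF-2α/1α, 65.4, 38.1 and 66.9 in HIF-2α, and 1146, 1165 and 1266 in HIF-1α/2α cells. The HIF-1α/2α libraries lay above all others, whereas on the HIF-2α structured part the libraries with the HIF-2α IDR lay below those with the HIF-1α IDR. The interaction was -3.57 ± 0.24 (adjusted p = 3.78e-15) for COL5A1 and -1.34 ± 0.22 (adjusted p = 1.91e-05) for COL13A1, and both were called in all 12 fits that left out a library. Both members were highest in the HIF-1α/2α line, and these p-values do not measure the spread between lines with the same construct. HIF-1α/2α cells also stood alone in COL7A1, with 36984, 34358 and 34162 normalised counts in WT and 67942, 77663 and 87429 in those cells (1.14 ± 0.06, adjusted p = 6.87e-21), for which the interaction of -0.55 was under 2-fold. EPAS1 had 51430 and 42541 normalised counts in HIF-1α/2α and HIF-2α cells and HIF1A had 9734 and 9625 in HIF-1α/2α and HIF-2α/1α cells. A chimera holds only part of each gene, and the cells' own transcripts were counted too, so these counts are not like measures of transgene level. The part of transgene level in the differences between these lines was not tested.

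**Figure D5:**
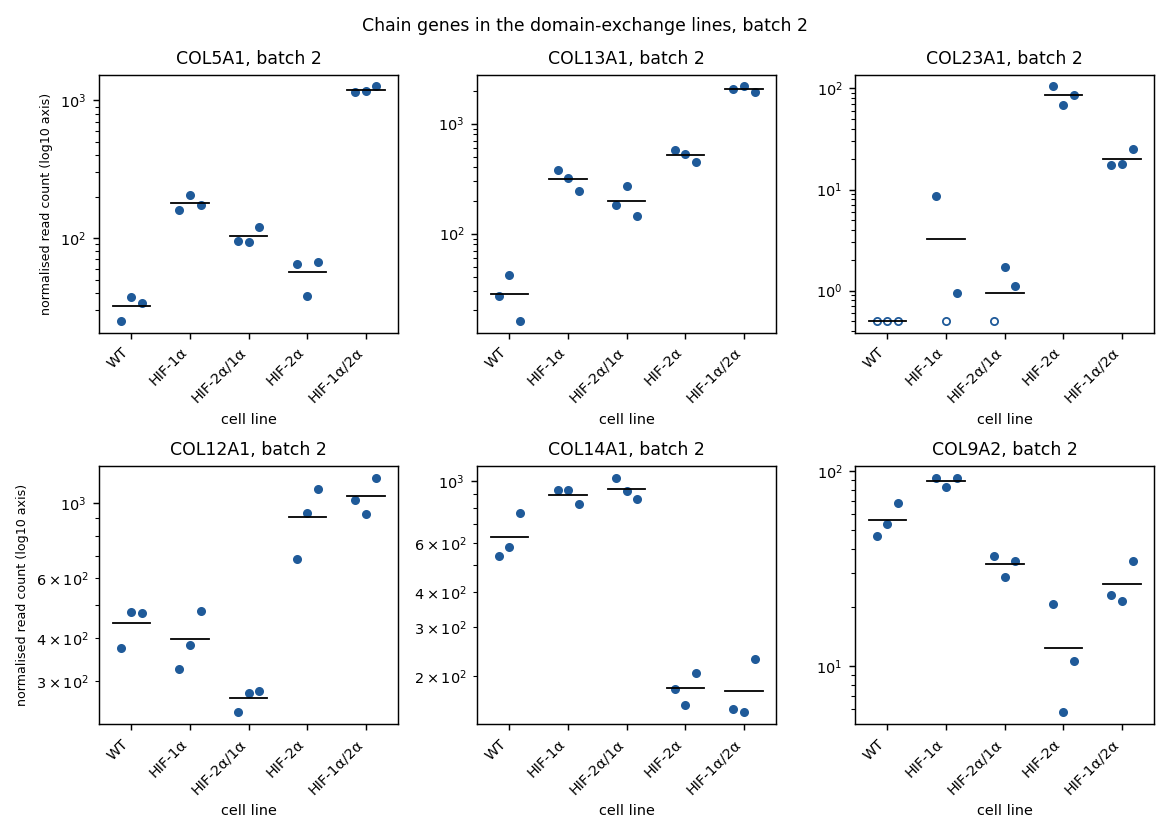
Normalised counts in every library of batch 2 (points; bars are means of 3 libraries; log axis; open circles are libraries at 0, drawn at 0.5) for 6 members called for the IDR or the structured part. COL14A1 fell into ranges of 823 to 1027 with the HIF-1α IDR and 149 to 230 with the HIF-2α IDR, and COL5A1 reached 1146 to 1266 in HIF-1α/2α cells alone.

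The KIN lines shared 3 called members, COL4A5, higher in both, and COL6A3 and COL13A1, lower in both. Of all 23410 genes tested, 322 were called for the clone with tagged HIF-1β and 970 for that with tagged HIF-2α. The number of genes called for both clones is not given here, so the 3 shared members are a description and not a test. Both comparisons used the same WT libraries and each line was 1 clone, so that clone and tag cannot be told apart. EPAS1 was also lower in the edited lines, with 6177 ± 497 normalised counts in HIF-2α KIN, below every WT library, and 10384 ± 2962 in HIF-1β KIN, which overlapped with WT (14497 ± 2021), and its part in these results was not tested. COL16A1, a fibril-associated chain, had 362, 414 and 412 normalised counts in WT, 161, 144 and 222 where HIF-1β was tagged, and 99.4, 89.9 and 237 where HIF-2α was tagged, below WT throughout. Its log2 changes of -1.17 (adjusted p = 0.145) and -1.46 (adjusted p = 0.0201) were not called, but with the replicate block, the numbers pairing these samples, they were -1.23 (adjusted p = 0.000343) and -1.61 (adjusted p = 3.41e-06) and called. The median log2 change of the 119 genes on chromosome 21 above the same count limit, which carries COL6A1, COL6A2 and COL18A1, was -0.397 in HIF-2α KIN, while these members had log2 changes of 0.46, 0.52 and 0.84.

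HIF-1α and HIF-2α were expressed in both batches, which differed in RNA extraction, library kit and read length. The difference between batches in the response to HIF-1α was called for 0 members by edgeR (0.00374% of all genes), with 2 members at an unadjusted p under 0.05 and 0 called by DESeq2, and that in the response to HIF-2α for 0 members (0% of all genes), with 4 and 0. For COL6A3 the response in batch 2 minus that in batch 1 was -0.51 ± 0.17 (adjusted p = 0.896) for HIF-1α and -0.73 ± 0.17 (adjusted p = 0.107) for HIF-2α. For COL4A1 it was -0.04 ± 0.26 and -0.17 ± 0.26.

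Over the 27 libraries of batch 1 and the 15 of batch 2, the member most like COL4A1 on the log2 scale was COL4A2 (Pearson's r = 0.947 and 0.995), and COL15A1 had 0.595 and 0.691. The member most like COL6A3 was COL13A1 in both batches (0.890 and 0.986), and COL6A2 had 0.503 and 0.949. These values describe the libraries, which share their depth and groups, and carry no test.

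Other genes of collagen biology were called in both directions. Of 34 genes of collagen assembly and processing, 4 were called higher and 2 lower with HIF-1α in batch 1 (3.79% of all genes called), 7 and 0 with HIF-2α (5.72%), 0 and 2 in each of HIF-1β KIN (1.38%) and HIF-2α KIN (4.14%), 2 and 0 in HIF-1α R30E (2.61%), and 0 in the other 3 mutant lines (0.457% to 0.496%). In batch 2 the counts were 4 and 2 for HIF-1α (4.39% of all genes called), 3 and 1 for HIF-2α/1α (3.49%), 7 and 1 for HIF-2α (7.58%) and 5 and 3 for HIF-1α/2α (7.78%). LOX, the lysyl oxidase that starts collagen cross-links, rose from 723 ± 132 normalised counts in WT to 4394 ± 474 in HIF-1α cells of batch 1 (2.60 ± 0.21, adjusted p = 1.85e-09). In HIF-1α/2α cells of batch 2 it rose by 2.27 ± 0.11. LOX was also called higher in HIF-2α cells of both batches, with 5929 ± 355 normalised counts in batch 1. The same held for HIF-1α and HIF-2α/1α cells of batch 2, while LOX was called lower in HIF-2α KIN. ADAMTS2, which removes the N-propeptide of fibrillar procollagens, fell by 2.59 ± 0.31 in HIF-2α KIN, and it fell by 2.80 ± 0.14 in HIF-1α/2α cells. LOXL3, a lysyl oxidase relative, fell by 2.64 ± 0.31 in HIF-1β KIN.

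Among 15 basement membrane partners of type IV collagen, 3 were called higher and 2 lower with HIF-1α in batch 1, 2 and 2 with HIF-2α, 1 and 2 in HIF-1α R30E, 0 and 1 in HIF-1β KIN, and 0 and 2 in HIF-2α KIN, beside the same shares of all genes. NID1, which links laminin to type IV collagen, had 3366 ± 34.4 normalised counts in WT and 38.2 ± 10.6 in HIF-2α KIN (-6.43 ± 0.20, adjusted p = 4.9e-18), and its homologue NID2 fell by 2.36 ± 0.23 in HIF-1β KIN. LAMA5, a laminin α chain, rose by 2.34 ± 0.34 in HIF-1α R30E. Of the collagen receptors, 9 were tested in batch 1 and 8 in batch 2, and at most 2 were called in any comparison with WT. ITGA1, the α1 subunit of a collagen-binding integrin, rose by 1.63 ± 0.12 (adjusted p = 3.78e-15) in HIF-1α/2α cells.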

How the data were processed

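RNA-seq was done on 42 libraries of 786-O cells, 3 per group. Per the labels and the study's methods, the authors aligned reads to hg38 with STAR, for which these sources name different versions, and counted uniquely aligned reads per gene with HTSeq, without regard to strand, and the deposited values are these raw counts. The unit here was therefore the count, and depth is given with the results.

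Each batch was fitted on its own, because RNA extraction, library kit and read length differed. Genes with a mean normalised count of at least 0.5 were kept, TMM factors were computed, and edgeR 4.0.16 (R 4.3.3) fitted all groups of a batch with its two-sided quasi-likelihood test. A call needed a Benjamini-Hochberg adjusted p of at most 0.01 over all genes tested and at least a 2-fold difference. The procedure was tested on simulated counts. Alternatives were DESeq2 1.42.0, RLE factors, no filter, only the groups compared, a replicate block and each library left out.

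Replicate numbers were taken to pair samples where every same-numbered pair of libraries deviated together (correlation over 0.1). This held in batch 1 for both KIN lines, HIF-1α, HIF-1αDM and HIF-2α R27E against WT, and for HIF-2α against HIF-2α R27E and HIF-1α.

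Every member could be named, and full statistics were given to called members with a mean normalised count of at least 50 in some group. Other genes were named if they encode a HIF subunit, are listed markers, or had the largest called change of a list in a comparison. The result of 1 such gene is not reported here. Members and lists were chosen with earlier results of these data known. Intervals cover counting error only.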

Additional observations from a re-analysis of the deposited data

Results flagged for a closer look

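The effect of the IDR differed between the structured parts in 2 collagen chains of batch 2, by a test of the difference itself. The interaction was -3.57 ± 0.24 on the log2 scale (adjusted p = 3.78e-15 in edgeR's quasi-likelihood test) for COL5A1 and -1.34 ± 0.22 (adjusted p = 1.91e-05) for COL13A1. COL5A1 was highest in all 3 HIF-1α/2α libraries, and on the HIF-2α structured part the libraries with the HIF-2α IDR were the lower ones. COL13A1 was also highest in the 3 HIF-1α/2α libraries. Its libraries with the HIF-2α IDR were the higher ones on both structured parts. Construct and line cannot be told apart here.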

How the results depend on the processing

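None of the 122 called changes of a collagen chain reversed under any setting run. With DESeq2 and with the replicate block all 122 were kept, with RLE factors 121 (COL4A2 in HIF-2α cells of batch 1 was lost), without the filter on low counts 120, and with only the groups compared 115. Of the calls, 91 were kept in every fit that left out a library. The count of called chains moved by over 1.5 times in these cases. HIF-2α R27E against WT went from 1 to 2 with DESeq2, without the filter and with the block. HIF-2αDM against WT went from 0 to 3 with DESeq2, without the filter and with the block, and to 2 with only the groups compared. HIF-1α against HIF-1α R30E went from 2 to 5 without the filter and with the block. HIF-2α against HIF-2α R27E went from 8 to 5 with only the groups compared, and the interaction from 2 to 4 without the filter. The cause was not tested. With a library left out, the count of called chains ranged from 5 to 7 for HIF-1α against WT in batch 1 (8 in all), from 2 to 5 for HIF-1α R30E (4), from 1 to 4 for HIF-1αDM (3), from 7 to 9 for HIF-2α in batch 1 (11) and from 1 to 2 for HIF-2α R27E (1). It ranged from 1 to 2 for HIF-1α against HIF-1α R30E (2), from 1 to 3 for HIF-1α against HIF-1αDM (3) and from 2 to 4 for the interaction (2). The block lost no call, and where the numbers paired the samples it changed no call other than those given with the results. In the other comparisons of batch 1, same-numbered libraries passed the limit of 0.1 in some replicates and missed it in others. Their correlations were 0.0936 to 0.430 for HIF-2αDM against WT, 0.0884 to 0.435 for HIF-2α against WT and -0.100 to 0.404 for HIF-1α against HIF-1α R30E. There the block also moved HIF-1α against HIF-1α R30E and HIF-2αDM against WT, as given above. By less than 1.5 times it moved HIF-2α against HIF-2αDM (8 to 10) and HIF-2α against WT in batch 1 (11 to 12). HIF-1α R30E against WT went from 4 to 6. In batch 2 it added 1 call each for HIF-1α, HIF-2α and HIF-1α/2α against WT and for HIF-2α against HIF-1α. The floor of 3 reads in a library corresponded to 2.10 to 4.74 normalised counts in batch 1 and 2.43 to 3.57 in batch 2, which limits statements on COL3A1, COL15A1 and COL23A1.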

Other observations

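Type VIII collagen, a short-chain network former of vessels and cornea, passed the call in no comparison with WT, except COL8A2 in HIF-1α cells of batch 1 with the replicate block, which is a description as given above. COL8A1 had changes under 2-fold in several lines. Its log2 change was 0.91 ± 0.19 (adjusted p = 0.00153 in edgeR's quasi-likelihood test) in HIF-2α cells of batch 1, 0.73 ± 0.06 (adjusted p = 6.8e-15) in those of batch 2, and 0.73 ± 0.19 (adjusted p = 0.0133) in the HIF-2α KIN clone, whose libraries, at 19680 to 25103 normalised counts, lay above those of WT (12492 to 15716). In HIF-1α cells it was 0.13 (adjusted p = 0.797) and -0.02 (adjusted p = 0.881), and HIF-2α against HIF-1α gave 0.75 ± 0.06 (adjusted p = 6.98e-15) in batch 2. The median log2 change of the 770 genes on chromosome 17 with a mean normalised count of at least 50 in batch 1, a chromosome that carries COL1A1, was 0.257 for the HIF-1β KIN clone and 0.427 for the HIF-2α KIN clone, and COL1A1 itself was not called in either. The part of the chromosome in its values was not tested.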
